A study of Mus musculus with 2 samples.

Results

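Expression of 5 genes was followed: *Runx1*, its binding partner *Cbfb*, and the corepressors of the ETO family, *Runx1t1*, *Cbfa2t2* and *Cbfa2t3*. They were taken by name from the deposited table, and all 5 were among its 14425 genes. The cells were tdTomato-sorted spiral ganglion neurons of the mouse cochlea, in 2 single-cell libraries with 1 library per genotype. The control library, iCON, came from Runx1-CreER/+; Ai14/+ mice, and the iCKO library from Runx1-CreER/Runx1F; Ai14/+ mice, in which the second *Runx1* allele was floxed. Mice of both groups carried the tamoxifen-inducible Cre under *Runx1* control and the Ai14 tdTomato reporter, and both received tamoxifen on postnatal day 1. Cochleae of both sexes were taken on postnatal days 27 to 29. Since Cre was driven from *Runx1*, only cells that used that driver after tamoxifen could be labelled or recombined, and the controls carried the same driver. The labels give neither the number of animals pooled per library nor the part of *Runx1* that is floxed. No untreated mice or mice without the driver were analysed here.

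Runx1 is a transcription factor that binds DNA through its Runt domain. Cbfb does not bind DNA itself. It pairs with the Runt domain, strengthens DNA binding and protects the partner from degradation. The ETO proteins are scaffolds that hold nuclear corepressors and histone deacetylases. *Runx1t1* is known as the fusion partner of RUNX1 in a form of acute myeloid leukaemia, and *Cbfa2t2* and *Cbfa2t3* are its paralogs. In sensory ganglia Runx1 is known for its part in the choice between neuron subtypes. Type I neurons of the spiral ganglion contact inner hair cells and type II neurons contact outer hair cells. Among type I neurons, a high level of *Calb2*, which encodes the calcium-binding protein calretinin, marks the Ia subtype. *Lypd1*, which encodes a membrane-anchored protein, marks the Ic subtype.

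Of the RefSeq promoter windows (250 bases before to 50 after each start, GRCm38.p6), 6 belonged to 4 of these genes, and *Runx1t1* had none. Both letter sequences of the Runx consensus, TGTGGT and TGCGGT, were searched on both strands. They are shown because Runx1 is itself a factor that reads them. The upstream start of *Runx1* carried 2 copies of ACCACA, the reverse complement of TGTGGT, starting 28 and 36 bases after the start. This stretch, at chr16:92826031-92826056 on the minus strand, is annotated as untranslated exon. An upstream window of *Cbfa2t3* carried 1 copy of ACCGCA, the reverse complement of TGCGGT, starting 124 bases before the start at chr8:122699218-122699243 on the minus strand, outside exons. Capitals mark the matches.
Runx1: ctcataaacaACCACAgaACCACAag
Cbfa2t3: cccgacccccACCGCAttatcactgt
The other 4 windows held neither. TGTGGT occurred in 16.8% of all 32851 windows and at least 2 copies in 1.81%. TGCGGT occurred in 6.45%. A match is a description of the letters and not of binding.

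The iCON library held 462 cells and 22011292 UMIs (unique molecular identifiers), with a median of 49725.5 per cell, and the iCKO library 407 cells and 13743824 UMIs, with a median of 33602. Levels are means over cells of CPM, the UMIs of a gene scaled to 1e+06 UMIs of the listed genes in that cell. At the median depth a single UMI was worth 20.1 CPM in iCON and 29.8 in iCKO, so the medians of the less abundant genes move in steps of about that size. Every cell of both libraries held RNA of the reporter, *Tomato*, at a mean of 647 CPM in iCON and 756 in iCKO. Neuron markers were present in both libraries (summed level 3347 to 23021 CPM over the 7 genes in iCON cells and 5042 to 23035 in iCKO cells). Of 10 markers of blood cells, which use Runx1, 2 were listed, with 6 UMIs in all in iCON and 4 in iCKO. The libraries also differed in sex make-up, with 252 cells holding *Xist* and no Y-linked RNA in iCON and 319 in iCKO, against 202 and 82 with Y-linked RNA and no *Xist*. All 10 markers of Schwann or satellite glia were listed, with a summed level of 0 to 12946 CPM over iCON cells (median 3429) and 0 to 5149 over iCKO cells (median 1914). All 4 hair cell markers were listed, with a median summed level of 0 in both libraries. In iCKO 2 cells exceeded 1000 CPM of them, both with under 1000 *Calb2* CPM. The *Runx1* mean of that library was 112 with and 113 without these cells. Of the 1613 UMIs of the 4 markers in iCKO, 1558 were of *Pcp4*, 45 of *Myo7a*, 5 of *Otof* and 5 of *Slc17a8*. Cells with fewer than 10 UMIs of the 6 myelin genes were 22.1% of iCON and 38.1% of iCKO. Differences below are between these 2 libraries, have no replicate check and carry no p-value. Intervals are 95% and cover counting error only.

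*Runx1*, on GRCm38 chromosome 16 (92601466 to 92826149, minus strand), was the most abundant of the set and its level in the library labelled iCKO was above that in iCON. Over cells it was 0 to 548 CPM in iCON, with a median of 73.8 and a mean of 86.7 ± 76.4 (SD over 462 cells). In iCKO it was 0 to 364, with a median of 97.02 and a mean of 112 ± 90.5 (SD over 407 cells). The ranges overlapped over most of their length. The log2 ratio was 0.36, with an interval of 0.23 to 0.42 for the ratio of summed UMIs. A 3′ assay reads the last exon, which for *Runx1* is 4659 bases long, of which 4192 follow the coding sequence. Counts from that end do not show whether an exon further upstream was removed, and this was not tested. *Cbfb* lies on chromosome 8 (105170674 to 105217989, plus strand), *Runx1t1* on chromosome 4 (13743436 to 13893649, plus strand), *Cbfa2t2* on chromosome 2 (154436481 to 154539356, plus strand) and *Cbfa2t3* on chromosome 8 (122625141 to 122699109, minus strand). A protein-coding gene on the opposite strand, *Gm20388*, overlaps the last exon of *Cbfa2t3* and was not listed in the table.

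Over all cells *Cbfb* had means of 46.9 ± 49.4 CPM (iCON) and 31.7 ± 42.9 (iCKO), with a log2 ratio of -0.50 (-0.66 to -0.33). *Cbfa2t3* had 28.9 ± 32.7 and 41.3 ± 45.7, a ratio of 0.45 (0.33 to 0.66). *Cbfa2t2* had 24.5 ± 24.8 and 23.7 ± 27.9, a ratio of -0.04 (-0.20 to 0.21), and *Runx1t1* had 16.0 ± 22.7 and 14.5 ± 25.5, a ratio of -0.11 (-0.44 to 0.07). The binding partner was thus lower in iCKO and *Cbfa2t3* higher, while the differences of *Cbfa2t2* and *Runx1t1* lay within counting error. None of the 5 had a ratio beyond 0.5 before rounding. *Cbfb* lay at that limit, and was -0.55 with a pseudocount of 1 CPM. It was -0.51 with another scaling and -0.54 without the highest 1% of cells. Other settings left it short of the limit, such as -0.47 after thinning and -0.44 from pooled UMIs with the pseudocount of 5 CPM. Pooled UMIs without a pseudocount gave -0.50. Among the 8506 genes with at least 10 CPM and detection in 25% of cells in a library, 1.36% were past 0.5 upward and 2.9% past -0.5. Within these genes *Cbfa2t3* stood at percentile 98.1, *Runx1* at 96.5, *Cbfa2t2* at 46.05, *Runx1t1* at 33.3 and *Cbfb* at 2.95.

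**Figure D1:**
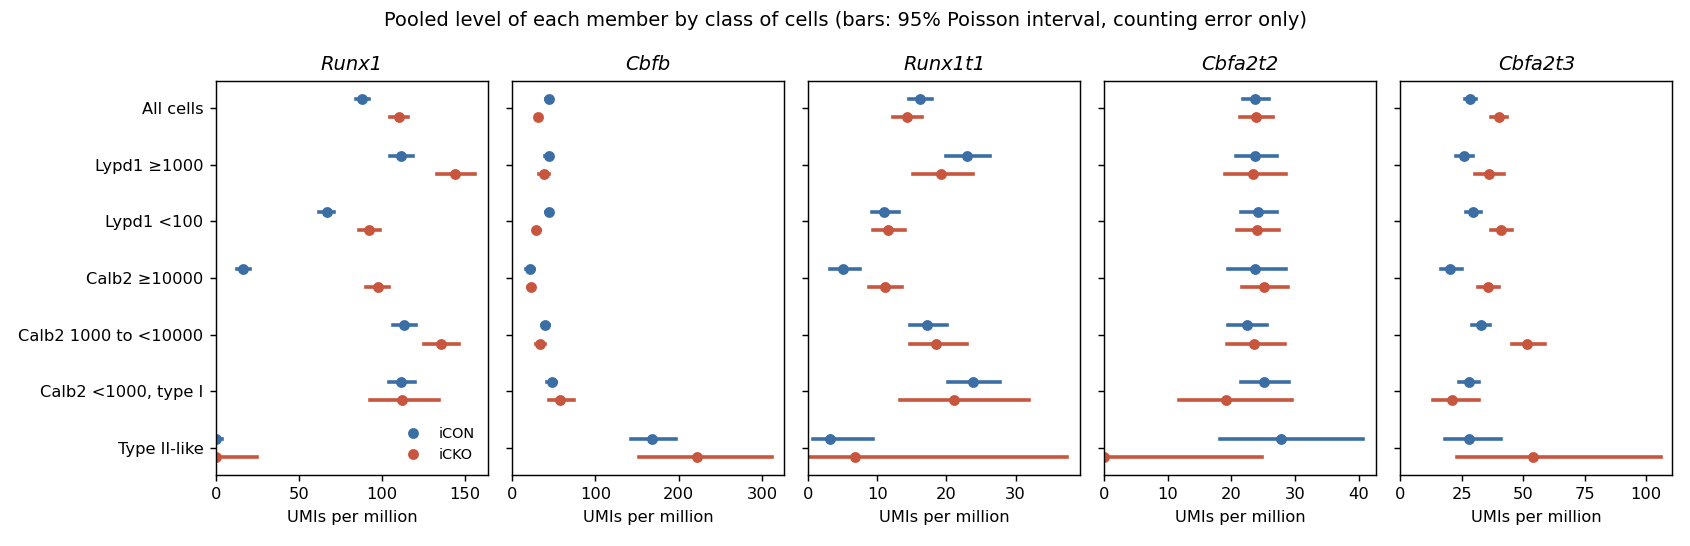
Pooled level of each gene (CPM from summed UMIs; the x scale differs between panels) in classes of cells, iCON in blue and iCKO in red, with bars for the 95% Poisson interval. *Runx1* in cells with at least 10000 *Calb2* CPM is far lower in iCON than in iCKO, and type II-like cells hold no *Runx1* UMI and have the highest *Cbfb*.

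Cells were next divided by *Calb2*. In iCON, 86 cells had at least 10000 *Calb2* CPM and 204 had 1000 to under 10000. In iCKO these classes held 227 and 142 cells. In iCON cells with high *Calb2*, *Runx1* was 0 to 123 CPM with a median of 0 and a mean of 16.0 ± 25.8 (SD over cells). In iCKO cells with high *Calb2* it was 0 to 361, with a median of 84.8 and a mean of 100.3 ± 90.8. Most high-*Calb2* control cells thus had no *Runx1* UMI, while high-*Calb2* iCKO cells were spread over nearly the whole range of the library. The log2 ratio was 2.33 (2.23 to 2.93). In the middle class, *Runx1* had means of 112 ± 72.2 (iCON) and 135 ± 86.9 (iCKO), with a log2 ratio of 0.26 (0.11 to 0.40). In type I cells with under 1000 *Calb2* (142 and 31 cells) the means were 111 and 121, a ratio of 0.12 that is within counting error (-0.29 to 0.29).

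The same class held different cell clusters in the libraries. Clusters were built without the 5 genes and the marker genes, and are called here by leading genes held by at least 40% of their cells. Of the high-*Calb2* cells, a pair of clusters led by genes such as *Trim54*, *Tmem132c* and *Rxrg* held 81 of 86 in iCON and 138 of 227 in iCKO. The remaining iCKO cells lay in a cluster led by *Anxa4* and *Olfml2b* (52 cells, none in iCON), a cluster led by *Ttn* and *Plcd4* (24, with 1 in iCON) and a cluster led by *Espn* and *Mgp* (13, none in iCON). Within the pair that held at least 10 such cells of each library, *Runx1* had means of 14.1 ± 24.0 (iCON) and 95.1 ± 90.9 (iCKO), a log2 ratio of 2.39, and the ratio was 2.53 (2.32 to 3.39) in one and 2.16 (1.83 to 3.06) in the other. The middle class was more divided, with 125 of 204 iCON cells but 11 of 142 iCKO cells in a cluster led by *Ttn* and *Aebp1*, and 44 and 34 iCKO cells, with no iCON cell, in the *Anxa4* and *Espn* clusters. In the *Ttn* and *Plcd4* cluster (45 iCON and 44 iCKO cells of the middle class), the *Runx1* ratio was 0.14 (-0.11 to 0.44), and in the *Ttn* and *Aebp1* cluster it was -0.36 (-1.01 to 0.14). In high-*Lypd1* cells the largest iCON cluster held 138 of 180 cells there and 19 of 126 in iCKO, with a ratio of 0.20 (-0.15 to 0.56). The *Ttn* and *Plcd4* cluster, with 31 and 41 high-*Lypd1* cells, gave -0.03 (-0.31 to 0.26), so the ratio lay within counting error in either of these clusters.

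Within the control library *Runx1* therefore differed between high and middle *Calb2* cells by a log2 ratio of -2.48 (-3.15 to -2.45). Within iCKO the ratio was -0.41 (-0.63 to -0.32). In these comparisons 3.53% and 2.48% of all genes past the lower floor were past -0.5. The intervals of the 2 steps, for counting error only, did not overlap, but the size of each step moved with the class limits. Whether the steps differ between genotypes was not tested. In iCON the step lay close to the class limit: the 18 cells with 8000 to under 10000 *Calb2* had a mean *Runx1* of 110.4, and the 7 cells with 10000 to under 12500 had 29.7. In iCKO the means just below and just above were 97.4 in 23 cells and 145 in 25 cells. At 20000 *Calb2* or more, the mean was 12.8 in the 46 control cells and 72.1 in 117 cells of iCKO. From 10000 to under 20000 it was 19.6 in 40 control cells and 130.3 in 110 cells of iCKO. With both *Calb2* limits divided by 2, which moves control cells from below the step into the high class, the ratio between libraries of 2.33 became 0.79 and the steps became -0.80 in iCON and -0.37 in iCKO. With the limits multiplied by 2 the steps were -2.48 and -0.84.

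**Figure D2:**
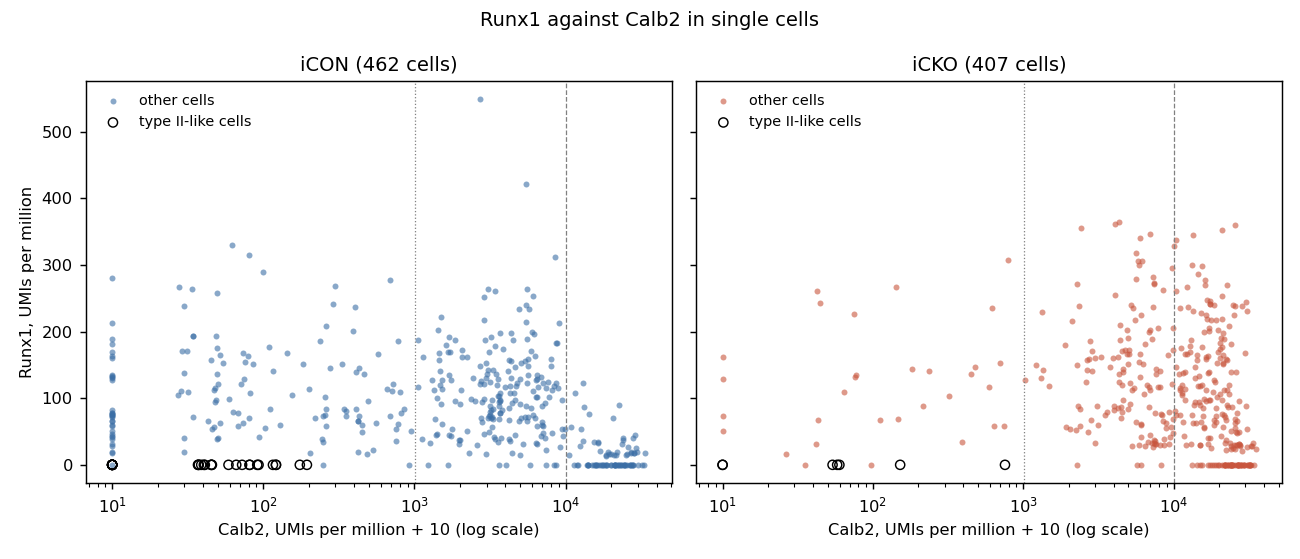
*Runx1* (CPM, linear) against *Calb2* (CPM plus 10, log scale) in single cells of each library; open circles are type II-like cells, and the dotted and dashed lines mark 1000 and 10000 *Calb2*. To the right of the dashed line the mean is 16.0 in iCON cells, of which 44.2% hold a *Runx1* UMI. In iCKO cells there the mean is 100.3, and single cells reach 361.

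The high-*Calb2* difference of *Runx1* was present in each division of the cells that differed between libraries. The ratio was 2.23 among *Xist* cells (56 iCON, 186 iCKO) and 2.57 among Y-linked cells (28 and 39). It was 2.40 in cells low in myelin-gene RNA and 2.24 in the others. The middle-class ratio was 0.04 among *Xist* cells and 0.57 among Y-linked cells, and whether these differ was not tested. After every cell was thinned to 20000 UMIs, *Runx1* was detected in 22.6% of the high-*Calb2* cells of iCON (14.2 to 33.05) and in 68.3% of those of iCKO (61.8 to 74.3). Unthinned, these shares were 44.2% and 77.1%, at median depths of 55570 and 34777 UMIs. In the middle class the thinned shares were 86.4% and 92.1%. *Tomato*, the reporter, also differed in high-*Calb2* cells, at 581 CPM against 772, a ratio of 0.41 (0.33 to 0.46). Its part in the *Runx1* difference was not tested.

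**Figure D3:**
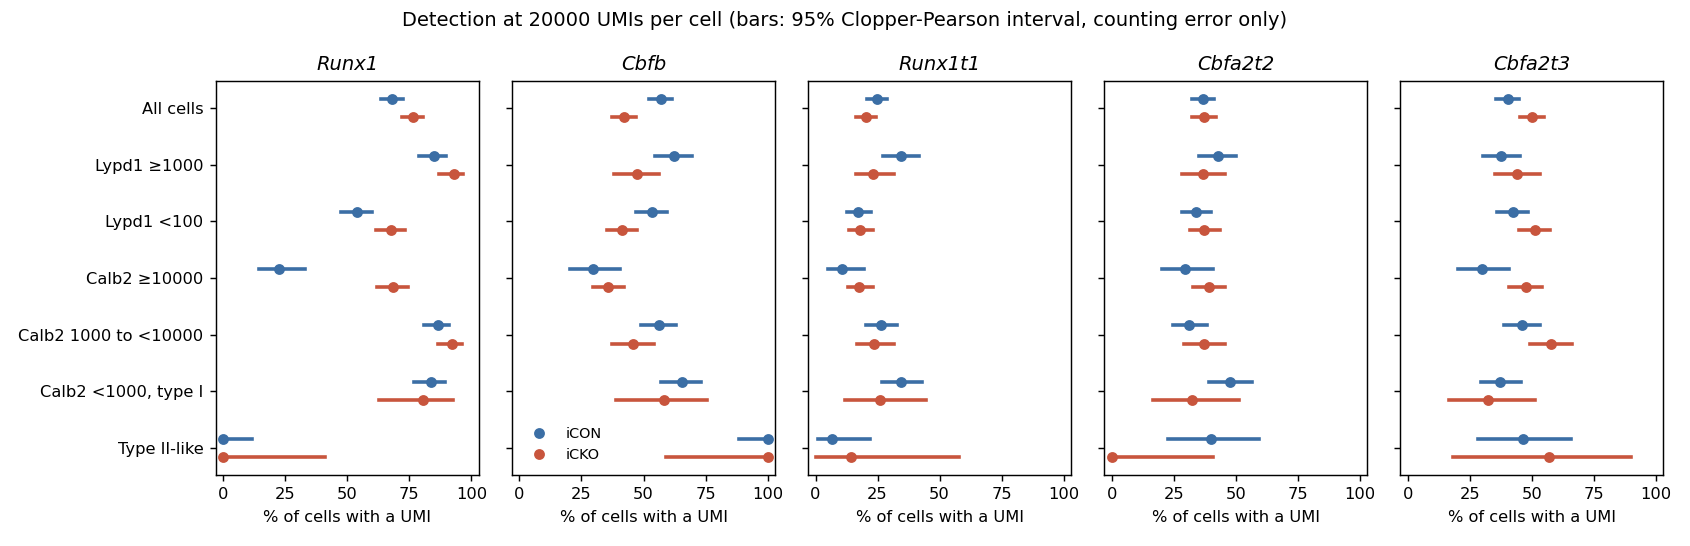
Share of cells with at least 1 UMI of each gene after thinning to 20000 UMIs per cell, by class, with 95% Clopper-Pearson intervals; iCON in blue and iCKO in red. The shares for *Runx1* in high-*Calb2* cells are 22.6% and 68.3%, and every type II-like cell has *Cbfb*.

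By *Lypd1*, 180 iCON and 126 iCKO cells had at least 1000 CPM, and 256 and 261 had under 100. In cells with high *Lypd1*, *Runx1* had means of 112 ± 68.2 (iCON) and 144 ± 81.9 (iCKO), with a log2 ratio of 0.36 (0.22 to 0.52). That difference was not seen in high-*Lypd1* cells low in myelin-gene RNA (29 and 41 cells, means of 142 in both), where the ratio was -0.00 (-0.33 to 0.25), and it was 0.44 (0.29 to 0.64) in the others. At least 1 *Runx1* UMI was present in 97.8% and 97.6% of these cells. In cells with low *Lypd1* it was 64.1 ± 71.2 and 95.1 ± 90.4, a ratio of 0.54 (0.33 to 0.61), and 0.40 (0.23 to 0.52) without type II-like cells. The low-*Lypd1* ratio differed by *Calb2*, at 2.23 (2.11 to 2.83) in the 85 iCON and 201 iCKO cells with high *Calb2* and 0.14 (-0.18 to 0.30) in the 139 and 52 cells of the middle class. The clusters of low-*Lypd1* cells differed too. The *Ttn* and *Aebp1* cluster held 106 of 256 iCON and 10 of 261 iCKO cells, with a ratio of -0.42 (-1.16 to 0.11). The *Anxa4* cluster held 66 iCKO cells and no iCON cell. The *Ttn* and *Plcd4* cluster held 31 low-*Lypd1* cells of each library, with *Runx1* means of 112 (iCON) and 159 (iCKO). The ratio in that cluster was 0.48 (0.11 to 0.77), beyond counting error. *Runx1* was therefore higher in the high-*Lypd1* than in the low-*Lypd1* cells of both libraries, by log2 ratios of 0.76 in iCON (0.61 to 0.88) and 0.58 in iCKO (0.49 to 0.80). In iCON the ratio was 1.13 among *Xist* cells, 0.29 among Y-linked cells and 0.59 without type II-like cells, and in iCKO it was 0.67 among *Xist* cells and 0.33 among Y-linked cells. The 139 low-*Lypd1* iCON cells of the middle *Calb2* class had a mean of 107, close to the 112 of high-*Lypd1* cells, and the 85 with high *Calb2* had 15.9. In iCKO these means were 118 and 92.9. Of all genes past the lower floor, 3.16% and 3.08% were past 0.5 upward there. The 26 iCON and 20 iCKO cells between these limits had means of 136.5 and 135. Cells with both high *Lypd1* and high *Calb2* numbered 1 in iCON and 14 in iCKO. All 14 held *Runx1* UMIs, with a mean of 169 ± 58.3 CPM.

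Ordered by mean, *Runx1* in iCON was lowest in type II-like cells, then in high-*Calb2* cells (16.0) and low-*Lypd1* cells (64.1), and similar at 111 to 112 in middle-*Calb2* cells, high-*Lypd1* cells and type I cells with under 1000 *Calb2*. In iCKO the order was type II-like cells, low-*Lypd1* cells (95.1), high-*Calb2* cells (100.3), type I cells with under 1000 *Calb2* (121), middle-*Calb2* cells (135) and high-*Lypd1* cells (144). These classes share cells, since *Lypd1* and *Calb2* were read separately. In iCKO each pair of neighbours above the type II-like cells differed by less than the SD over cells. That SD describes the spread of single cells, so it does not decide the order of the means.

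The type II-like cells, 30 in iCON and 7 in iCKO, formed a cluster with *Plk5* and *Th*, and also *Apoe*, a gene of satellite glia, among its 10 leading genes. Of the 6 type II markers, *Gata3* (744 CPM against 36.7 in type I cells), *Plk5*, *Th* and *Prph* were high there, and *Smad3* and *Etv4* had no UMI and were at or under 1.88 in type I cells. The 5 members were left out of the clustering. None of the 37 cells held a *Runx1* UMI, which allows up to 8.11% of such cells to hold one. This covers cells with a detected UMI at a median depth of 28282, and not RNA below detection. Against the limit of 3 UMIs over the group, the *Runx1* mean of type I cells was at least 28.9-fold higher in iCON and at least 5.66-fold higher in iCKO. All 37 cells held *Tomato*, at a mean of 295 CPM in iCON and 280 in iCKO, against 671 and 764 in type I cells.

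Markers of other cells also differed in the type II-like cells. *Apoe* was 957 CPM against 12.98 in type I cells and *Fabp7*, a fatty acid binding protein gene of glia, 373 against 6.50. The summed level of the 10 glial markers was 0 to 9934 in the iCON type II-like cells (median 1437) and 0 to 1977 in those of iCKO (median 0), against medians of 3431 and 1923 in type I cells. The neuron genes *Tubb3* (333 against 1183), *Snap25* (865 against 3012) and *Rbfox3* (0.962 against 115) were lower, and the 7 neuron markers together were 3347 to 10062 in iCON type II-like cells and 5042 to 7591 in those of iCKO, against medians of 14239 and 15673 in type I cells. The part of these differences in the values of the 5 genes was not tested.

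*Cbfb* went the other way from *Runx1* and was present in every type II-like cell. It ranged from 32.9 to 304 CPM in the 30 iCON cells (mean 167 ± 78.2) and from 132 to 297 in the 7 iCKO cells (mean 224 ± 54.0). In type I cells it was 38.6 ± 33.7 and 28.4 ± 34.2. The log2 ratio of type II-like over type I cells was 1.98 in iCON (1.87 to 2.38) and 2.78 in iCKO (2.37 to 3.45). Between these cell types, however, 23.6% of 9138 genes were past 0.5 upward in iCON and 31.5% of 9151 genes in iCKO. *Cbfa2t3* was 28.8 in iCON type II-like cells and 28.9 in type I cells, and in iCKO it was 54.9 and 41.1, a ratio of 0.38 within counting error (-0.79 to 1.42). *Runx1t1* had 3 UMIs in 2 of the 30 iCON cells and 1 UMI among the 7 iCKO cells. *Cbfa2t2* was 27.9 in iCON type II-like cells and had no UMI in the 7 iCKO cells, whose 148648 UMIs allow up to 20.2 CPM.

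Among type I cells, *Cbfb* was lower where *Calb2* was higher, in both libraries. In iCON it was 47.02 ± 35.2 CPM under 1000 *Calb2*, 40.2 ± 34.3 in the middle class and 20.7 ± 21.1 at 10000 or more. In iCKO it was 53.2 ± 56.0, 32.2 ± 38.4 and 22.6 ± 24.4. Of these 3 classes, high-*Calb2* cells thus had the lowest *Cbfb* level in either library. The log2 ratio of high over middle cells was -0.82 in iCON (-1.25 to -0.59) and -0.43 in iCKO (-0.90 to -0.26).

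Within the *Calb2* classes, both sexes together, the iCKO and iCON levels of *Cbfb* lay closer together than over all cells. The log2 ratio was 0.10 in high-*Calb2* cells (-0.28 to 0.46), -0.28 in the middle class (-0.53 to 0.03) and 0.16 in type I cells below it (-0.14 to 0.68). All 3 intervals include 0. Within either sex the middle class was about as far apart as all cells (-0.50), at -0.48 (-0.90 to -0.19) among *Xist* cells and -0.47 (-1.16 to 0.15) among Y-linked cells. By *Lypd1* the levels did not lie closer in every class: the ratio was -0.25 (-0.48 to 0.06) in high-*Lypd1* cells (-0.38 among *Xist* cells, interval -0.74 to -0.07, and -0.37 among Y-linked cells, -1.11 to 0.27), -1.18 (-2.84 to -0.60) in the 26 iCON and 20 iCKO cells between the limits, and -0.37 (-0.62 to -0.14) in low-*Lypd1* type I cells. Over all type I cells it was -0.39 (-0.58 to -0.23). The high-*Calb2* class made up 19.9% of type I cells in the control library and 56.8% in iCKO. When the iCKO classes were weighted by their shares in iCON, the mean became 37.2 against 38.6, a ratio of -0.05. In that weighting the class under 1000 *Calb2* counted for 32.9%, and its iCKO cells were few, with an SD above their mean. No interval was computed for the weighted ratio, and the part of class make-up in the difference was not tested. The same weighting gave 0.40 for *Runx1*, 0.39 for *Cbfa2t3*, 0.08 for *Runx1t1* and -0.10 for *Cbfa2t2*. Among Y-linked cells of all types the *Cbfb* ratio was 0.09, and among *Xist* cells -0.85. The 30 type II-like cells of iCON were all *Xist* cells and the 7 of iCKO all Y-linked. Without them the ratios were -0.57 and -0.43.

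*Cbfa2t3* was the ETO gene whose difference over all cells lay beyond counting error. In high-*Calb2* cells its means were 20.7 ± 26.2 CPM (iCON) and 36.2 ± 39.8 (iCKO), a ratio of 0.68 (0.46 to 1.16). In the middle class it was 33.6 ± 35.0 and 53.2 ± 53.2, a ratio of 0.59 (0.41 to 0.90). It was 0.47 (0.17 to 0.78) in high-*Lypd1* cells and 0.43 (0.25 to 0.68) in low-*Lypd1* cells. In these 4 classes the iCKO level was the higher, beyond counting error. Inside the high-*Lypd1* class the ratio was 0.89 (0.44 to 1.55) in middle-*Calb2* cells (39 iCON, 82 iCKO) but -0.23 (-1.00 to 0.35) in cells with under 1000 *Calb2* (140 and 30), and -0.10 (-0.93 to 0.45) in cells low in myelin-gene RNA. In type I cells with under 1000 *Calb2* it was 27.2 ± 31.1 and 21.7 ± 32.9, a ratio of -0.27 that is within counting error (-1.11 to 0.24). In type I Y-linked cells the ratio was 0.13 (-0.27 to 0.54), against 0.44 (0.26 to 0.68) in type I *Xist* cells. After thinning, *Cbfa2t3* was detected in 40.3% of the iCON library (35.8 to 44.98) and 50.1% of the iCKO library (45.1 to 55.1).

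*Runx1t1* was the least abundant member, and its mean was lower in high-*Calb2* cells and higher in high-*Lypd1* cells of both libraries. In high-*Calb2* cells its means were 5.67 ± 12.0 CPM (iCON) and 11.2 ± 21.8 (iCKO), from 23 and 88 UMIs, a ratio of 0.60. The summed-UMI interval, without the pseudocount, was 0.46 to 1.86. In the middle class the levels were 16.7 ± 22.7 and 18.5 ± 27.8, a ratio of 0.11 (-0.29 to 0.49). High over middle cells gave -1.03 in iCON and -0.54 in iCKO. The summed-UMI intervals, without the pseudocount, were -2.47 to -1.14 and -1.19 to -0.30. In iCON the level was over 10 CPM in the middle class alone, so the gene passed that floor only through the class where it is higher. High-*Lypd1* cells had 23.4 ± 25.4 and 19.8 ± 31.4, and low-*Lypd1* cells 10.8 ± 19.4 and 11.5 ± 21.9. In high-*Lypd1* cells low in myelin-gene RNA (29 and 41) the levels were 25.3 and 12.4, a ratio of -0.80 (-1.98 to -0.19), against -0.19 (-0.65 to 0.12) in the whole class. High-*Lypd1* cells thus had the higher level in each library, with ratios of 0.84 in iCON (0.73 to 1.38) and 0.59 in iCKO (0.30 to 1.17). In control cells it was 1.24 among *Xist* cells and 0.35 among Y-linked cells. In type I cells low in myelin-gene RNA, *Runx1t1* was 11.5 in iCON and 9.21 in iCKO, against 18.2 and 17.8 in the other type I cells. The part of that RNA in the differences between libraries was not tested.

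*Cbfa2t2* had similar levels in the larger classes. Its mean lay between 22.8 and 25.2 CPM in the high and middle *Calb2* classes and the high and low *Lypd1* classes of both libraries. Its ratio between libraries lay between -0.07 and 0.04 in these classes, each within counting error. In type I cells with under 1000 *Calb2* the control mean was 25.9 and the iCKO mean 19.0, for a ratio of -0.37 (-1.13 to 0.28), and in Y-linked high-*Lypd1* cells (79 and 20) the ratio was -0.61 (-1.69 to 0.36). High-*Calb2* over middle cells gave 0.10 in iCON and 0.08 in iCKO. At 20000 UMIs per cell it was detected in 36.8% of iCON and 37.3% of iCKO cells.

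In high-*Calb2* cells, 3 of the 5 genes (*Runx1*, *Runx1t1* and *Cbfa2t3*) were past 0.5 upward in iCKO and none past -0.5, where 1.78% and 2.36% of the 8384 genes tested were. *Runx1t1* was over 10 CPM in this class in iCKO alone (5.67 in iCON), so it was tested only through the library where it is higher and its call is not support. The calls of *Runx1t1* and *Cbfa2t3* depended on the cells taken. *Runx1t1* was 0.25 with the *Calb2* limits multiplied by 2, 0.39 with them divided by 2, 0.01 in Y-linked cells and 0.33 in the clusters shared by the libraries. *Cbfa2t3* was 0.31 with the limits multiplied by 2, 0.45 in Y-linked cells and 0.58 in the shared clusters. In the middle class *Cbfa2t3* alone was past 0.5, against 2.06% of genes upward and 2.6% past -0.5. Its ratio of 0.59 there became 0.45 with the limits divided by 2 and 0.50 among *Xist* cells. In low-*Lypd1* cells *Runx1* was past 0.5 upward, against 1.32%, and *Cbfb* was past -0.5, at -0.61 (-0.82 to -0.38), against 3.49%. Without type II-like cells these became 0.40 and -0.37. With type II-like cells kept, Y-linked cells gave 0.47 for *Runx1* and 0.31 for *Cbfb*, and *Xist* cells gave 0.69 and -1.12. In high-*Lypd1* cells none of the 5 was past 0.5 in either direction, where 1.97% and 3.39% of genes were. This also depended on the cells taken. *Cbfa2t3* was 0.54 with the *Lypd1* limits multiplied by 2 and 0.48 with them divided by 2. *Runx1* was 0.51 among Y-linked cells and 0.23 among *Xist* cells, and *Cbfa2t2* was -0.61 and 0.

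**Figure D4:**
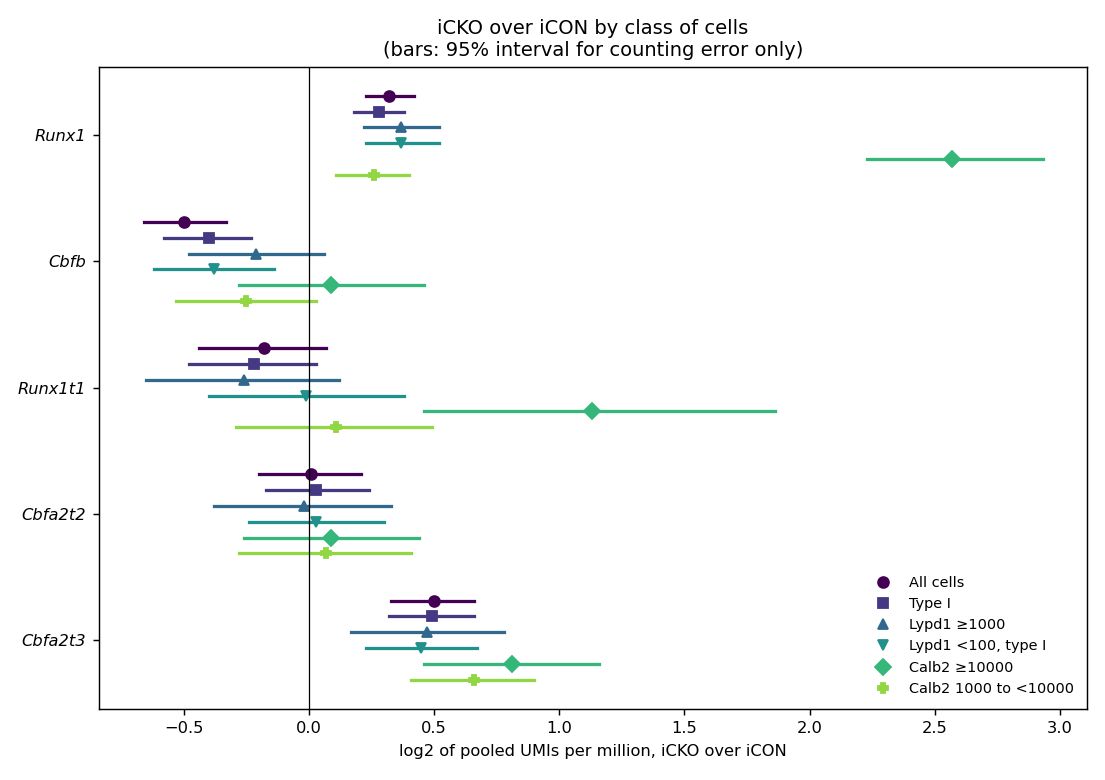
Log2 ratio of pooled CPM (no pseudocount), iCKO over iCON, for each gene in all cells, type I cells, high-*Lypd1* cells, low-*Lypd1* type I cells, high-*Calb2* cells and middle-*Calb2* cells, with 95% intervals for counting error only. The *Runx1* point for high-*Calb2* cells (2.57) stands apart from the other 5 plotted (0.26 to 0.37), and all 6 points of *Cbfa2t2* lie close to 0.

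Per cell at 20000 UMIs, *Runx1* together with *Cbfb* was found in 39.4% of the iCON library (34.9 to 44.1) and 31.1% of the iCKO library (26.6 to 35.9). The product of the separate shares was 38.8% and 32.03%, so over all cells the pair was seen together about as often as these shares would give. All cell types are pooled there, including the type II-like cells, which all held *Cbfb* and no *Runx1* UMI. The shares without those cells were not computed. Cells with *Runx1* and no *Cbfb* UMI were 28.6% (24.5 to 33.03) and 45.2% (40.3 to 50.2). In high-*Calb2* cells the pair was found in 4 of 84 control cells (4.76%, 1.31 to 11.7) and 55 of 227 iCKO cells (24.2%, 18.8 to 30.3). A missing UMI at this depth does not show that a cell lacks the RNA. The summed level of the 3 ETO genes was 69.4 CPM in iCON and 79.5 in iCKO. *Cbfa2t3* made up 41.7% of it in iCON and 52.0% in iCKO, *Cbfa2t2* 35.3% and 29.8%, and *Runx1t1* 23.03% and 18.2%.

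The genes most like *Runx1* were ranked by the lower of the 2 within-library Spearman correlations across the 454 iCON and 405 iCKO thinned cells. The cells share library and depth and are not independent, so no p is given. The first was *Ntng1*, the netrin G1 cell adhesion gene, with 0.49 in iCON and 0.44 in iCKO. *Ntng1* is also on the list of type Ic markers used here, and the part of subtype in this likeness was not tested. Its level in high-*Calb2* cells was 13.2 CPM in iCON and 89.03 in iCKO, and in middle cells 208 and 210.2. It was followed by *Cdk14* (0.41 and 0.33), *Chgb*, which encodes a granin of secretory granules (0.32 and 0.33), *Cib2*, a calcium- and integrin-binding gene (0.37 and 0.32), and *Cpne9*, a copine (0.37 and 0.31). For *Cbfb*, only *Rph3a*, the rabphilin gene of synaptic vesicles (0.25 and 0.24), and *Prune2* (0.23 and 0.21) reached 0.2. No gene reached 0.2 for the ETO members. *Runx1* and *Cbfb* had 0.02 in iCON and -0.07 in iCKO, with type II-like cells included.

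Other genes of the pathway were counted at a floor of 50 CPM and detection in 25% of cells, where 1.62% of 3761 genes were past 0.5 upward and 2.74% past -0.5. Of the paralogs, *Runx2* had 1 UMI in iCON and 3 in iCKO, and *Runx3* was not listed. All 7 genes of the TLE list were listed and 2 were past the floor. *Tle4*, a Groucho-type corepressor recruited by Runx proteins, was 78.02 CPM against 50.9 in iCKO, a ratio of -0.57 (-0.70 to -0.43). In type I cells it was -0.40, in middle-*Calb2* cells -0.32 and in high-*Lypd1* cells -0.41. In high-*Calb2* cells the *Tle4* ratio was -0.16, within counting error (-0.39 to 0.14). *Aes*, a short member of that family, was 673 and 831, a ratio of 0.30. All 10 genes of the ETO partner complex were listed. The 6 past the floor had a median ratio of -0.09, against 0.01 for all genes past that floor, and none past 0.5 in either direction. *Ncor1*, a nuclear corepressor, was 152 and 154 CPM, *Hdac2* 83.7 and 70.5, and *Hdac3*, the deacetylase held by the NCoR complex, 64.4 and 55.6.

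All 14 coactivators and modifiers of Runx proteins were listed. The 4 past the floor had a median of 0.17 and none past 0.5. *Smarca4*, a chromatin remodelling ATPase, was 176 CPM in iCON and 218.5 in iCKO (0.30), *Prmt1*, an arginine methyltransferase, 134 and 128.5 (-0.06), and *Kmt2a*, a histone methyltransferase, 128 and 134 (0.07). None of the 6 listed E proteins and zinc finger partners of the ETO proteins was past the floor. Of 14 genes known to follow Runx1 in pain and itch neurons of the dorsal root ganglion, 5 were listed and none was past the floor. The highest of them, *Ret*, a receptor tyrosine kinase, was 2.93 CPM in iCON and 3.28 in iCKO.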

How the data were processed

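The deposited expression table holds, per the values, the natural log of 1 plus CPM in each cell, over the genes listed. A second deposited file, other than numeric, names the library of each barcode. Per the submitters' processing notes, Cell Ranger and Seurat were used with the mm10 build. Versions, cell filters and strand settings are not given in the sources used here. Linear values summed to 1e+06 in all 869 cells, and whole UMI counts were recovered within 2.16e-10 (tolerance 1e-06). No column lacked a library, and 0 barcodes were repeated.

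Levels are means of CPM over cells. Log2 ratios used a pseudocount of 5 CPM on the means. Exact conditional intervals refer to summed UMIs without pseudocount. Poisson and Clopper-Pearson intervals are at 95%, and a count of 0 was given a limit of 3 counts. With 1 library per genotype no test was run. Thinning to 20000 UMIs kept 454 cells of iCON and 405 of iCKO, dropping 8 and 2. Cells were clustered with scanpy 1.11.5 and leidenalg 0.10.2 (2000 variable genes, 20 components, 15 neighbours, resolution 0.5), without the 5 genes and the marker lists. Scrublet called 1 iCON and 4 iCKO cells doublets, which were kept in the main values. Interval and ratio functions were tested on simulated data with Poisson counting error only. Those data had no cell types and no added spread between cells, so the intervals were not tested for such spread. Positions are from GENCODE M21 (GRCm38), and 13855 of 14425 symbols matched it.

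The 5 genes and the gene lists were chosen with earlier results of these data known. Named from the lists are genes past a ratio of 0.5 and at most 3 others per list with the highest mean. Alternatives varied the pseudocount, pooling, scaling, thinning, class limits, doublets, type II-like cells, sex, myelin-gene RNA and the highest 1% of cells. The divisions of type I cells by sex, the weighting by *Calb2* class, the shared clusters and the floor of 10 CPM were added after seeing the data.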

Additional observations from a re-analysis of the deposited data

Results flagged for a closer look

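The ratio of *Runx1t1* in cells with under 100 *Lypd1* CPM went opposite ways in the sexes. The log2 ratio, iCKO over iCON, was 0.41 among *Xist* cells and -0.70 among Y-linked cells. This difference was not tested, since there is 1 library per genotype. Without type II-like cells the ratios were 0.25 (-0.13 to 0.90) in 199 iCKO and 107 iCON *Xist* cells, and -0.71 (-2.23 to -0.16) in 52 and 115 Y-linked cells. The levels there were 10.2 CPM in iCON and 13.02 in iCKO for *Xist* cells, and 13.4 and 6.24 for Y-linked cells, each worth less than a single UMI at the median depth.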

How the results depend on the processing

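The ratios of the 5 genes over all cells were recomputed in 75 alternative settings in all, of which 61 moved by no more than 0.5 of the width of the counting interval, 13 moved further and 1 reversed a difference whose interval left out 0. *Runx1t1* and *Cbfa2t2*, whose intervals included 0, changed sign in some of the 61, with values of up to 0.08. A pseudocount of 50 gave 0.25 for *Runx1*, -0.25 for *Cbfb* and 0.21 for *Cbfa2t3*. *Xist* cells alone gave -0.85 for *Cbfb*. Y-linked cells alone gave 0.09 for *Cbfb*, the reversal, -0.51 for *Runx1t1*, -0.28 for *Cbfa2t2* and 0.22 for *Cbfa2t3*. Type I *Xist* cells gave 0.16 for *Runx1*, and type I Y-linked cells 0.52 for *Runx1*, -0.49 for *Runx1t1* and 0.13 for *Cbfa2t3*. Cells low in myelin-gene RNA gave 0.47 for *Runx1*, and weighting by *Calb2* class gave -0.05 for *Cbfb*. Of 265 settings for the classes, 235 stayed within that width, 28 moved and 2 reversed, both for *Cbfb* in Y-linked cells: 0.31 in low-*Lypd1* cells, and -0.44 for high over low *Lypd1* in iCKO. The cause was not tested. No paired analysis was possible because there is 1 library per genotype, so no library could be left out either. Members with fewer than 100 UMIs in a class, such as *Runx1t1* in high-*Calb2* cells, are limited by depth. The same holds for *Runx1* in high-*Calb2* cells of iCON, with 75 UMIs.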

Other observations

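*Zbtb16*, which encodes a zinc finger protein bound by ETO proteins, lay below the floor and was picked after its values were seen. It had 92 UMIs in iCON and 161 in iCKO, at 4.21 and 11.3 CPM, and was present in 16.7% and 29.7% of cells before thinning. The log2 ratio with the pseudocount was 0.83. The summed-UMI log2 ratio, without the pseudocount, had an interval of 1.11 to 1.87. In high-*Calb2* cells the levels were 1.68 and 10.8 CPM, and in high-*Lypd1* cells 5.87 and 14.1.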
